A study of Mus musculus with 6 samples.

Results

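WNT signalling genes were followed in mouse embryonic stem cells before and after deletion of Dicer, the enzyme that releases mature microRNAs from their hairpin precursors. The genes were taken by a rule on symbols, chosen with earlier results of these data known. It covered all Wnt ligands, Frizzled receptors and Dickkopf inhibitors, and 18 further named genes. These 18 were for ligand secretion, co-receptors, receptor turnover, secreted inhibitors, the beta-catenin destruction complex and the TCF/LEF factors. The rule matched 51 genes in a RefSeq gene table, of which 50 were measured among 19938 genes in all. Tcf7 was not analysed here. They comprised 19 ligands, 2 genes of ligand secretion, 10 Frizzled receptors, 4 co-receptors and receptor turnover genes, 7 secreted inhibitors, 5 members of the destruction complex including beta-catenin itself, and 3 TCF/LEF factors.

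All 6 arrays came from embryonic stem cells of the Dicer Fx/Fx genotype, in which both Dicer alleles are flanked by recombination sites. The 3 tamoxifen arrays held cells that had received tamoxifen for 3 days to delete Dicer and were collected 2 days later, on day 5. The 3 untreated arrays held cells without the deletion, for which no collection day was given. The sources used here name neither the recombinase nor the number of clones, and do not say whether replicates were separate cultures. The p-values therefore reflect the spread among these arrays alone, and that spread may be technical. Wild-type E14 cells given tamoxifen are mentioned in the protocol and were not analysed here, so tamoxifen and Dicer deletion cannot be told apart. RNA was read on Affymetrix arrays as 1 log2 signal per probe set after the robust multi-array average (RMA), and arrays give no depth; their number limits the precision.

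WNT ligands are secreted lipid-bearing proteins that bind a Frizzled receptor and a co-receptor, Lrp5 or Lrp6. In the canonical branch this stops a destruction complex of Axin, Apc and the kinase Gsk3b from marking beta-catenin for degradation, and beta-catenin then joins TCF/LEF factors on DNA. Other ligands, Wnt5a among them, act largely without beta-catenin, through planar cell polarity and related routes. In mouse embryonic stem cells canonical signalling is known to favour self-renewal, chiefly by lifting repression by Tcf7l1.

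Dicer loss removes mature microRNAs, and in mouse embryonic stem cells the miR-290 cluster supplies many of them. Among the WNT genes, Dkk1 has been described as a target of this cluster. The mature sequences are shown because their shared seed is what links them to targets. They were taken from RefSeq (GRCm38.p6, chromosome 7, plus strand), are written 5′ to 3′ and carry the seed, bases 2 to 8, in capitals. The first has its own seed and the other 3 share another, which differs in the last base.
mmu-miR-290a-3p: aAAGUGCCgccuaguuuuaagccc
mmu-miR-291a-3p: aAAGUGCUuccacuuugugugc
mmu-miR-294-3p: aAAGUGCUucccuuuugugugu
mmu-miR-295-3p: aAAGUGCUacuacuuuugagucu

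Upstream sequence was read for the WNT genes with an entry in RefSeq's promoter table, 33 of the 50. Of these, 3 are shown, 250 bases each up to the annotated start, 5′ to 3′ on the strand of the gene: Fzd10, the called receptor that has an entry; Axin2, the feedback target by which canonical activity is usually read; and Dkk1, the miR-290 target. The forms CTTTGAT and CTTTGAA of the TCF/LEF recognition letters were searched on both strands (ATCAAAG and TTCAAAG in reverse) and are in capitals. Other forms, such as CTTTGTT, were not searched and are not marked. The windows are chr5:128600856-128601105 (plus strand) for Fzd10, chr11:108920099-108920348 (plus strand) for Axin2 and chr19:30549497-30549746 (minus strand) for Dkk1, all in GRCm38.p6.
Fzd10: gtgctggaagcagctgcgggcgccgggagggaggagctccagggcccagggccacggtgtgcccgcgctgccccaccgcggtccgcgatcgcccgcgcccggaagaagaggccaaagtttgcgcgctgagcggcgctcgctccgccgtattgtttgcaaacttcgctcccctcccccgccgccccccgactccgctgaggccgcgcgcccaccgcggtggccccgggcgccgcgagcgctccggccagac
Axin2: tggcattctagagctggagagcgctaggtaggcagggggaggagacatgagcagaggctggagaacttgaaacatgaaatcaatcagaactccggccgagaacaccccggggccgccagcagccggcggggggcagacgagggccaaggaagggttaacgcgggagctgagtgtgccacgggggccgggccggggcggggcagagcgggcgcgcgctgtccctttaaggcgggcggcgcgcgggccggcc
Dkk1: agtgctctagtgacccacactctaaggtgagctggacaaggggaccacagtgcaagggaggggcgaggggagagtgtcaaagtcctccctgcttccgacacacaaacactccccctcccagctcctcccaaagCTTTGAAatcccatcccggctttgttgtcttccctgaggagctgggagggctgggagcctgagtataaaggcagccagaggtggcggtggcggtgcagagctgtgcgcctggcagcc

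Among these 3 windows a match was found in that of Dkk1 alone, CTTTGAA on the gene's strand, beginning 117 bases before the start. Of 42 windows of the 33 WNT genes, 3 held either motif, those of Dkk1, Wnt11 and Wnt5b. Of all 32851 windows in the table, 3.21% held CTTTGAT, 4.46% held CTTTGAA and 7.48% held at least 1 of them. The windows of Fzd10 and Axin2 were 76.4% and 69.2% G or C, against 60.8% for Dkk1. A match describes letters and not a bound site.

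Dicer1 was lower in every tamoxifen array, at 9.53, 9.48 and 9.69, against 11.43, 11.36 and 11.48 in untreated arrays (log2 signal, log2 change -1.85 ± 0.07 SE, limma adjusted p = 3.61e-05). In bulk RNA such as this, fewer cells with a transcript and less transcript per cell cannot be told apart. Of 10 embryonic stem cell markers 0 passed limma at an adjusted p under 0.05. At an unadjusted limma p under 0.05, 4 passed in either direction, or 40% against 24.5% of all genes. All 4 were lower, as were 2602 of all 19938 genes. With the replicate number as a block 3 were called lower, Utf1, Tdgf1 and Fgf4, or 30% against 9.54% of all genes. All tamoxifen values lay below all untreated values in 5 of the 10 markers, against 14.8% of all genes. Their mean log2 signal lay between 12.36 and 12.42 in tamoxifen arrays and between 12.46 and 12.55 in untreated arrays. The 12 measured fibroblast and feeder markers also had 0 called, with a mean signal of 6.78 to 6.90 against 6.70 to 6.82. At an unadjusted limma p under 0.05, 2 of them passed, or 16.7% against 24.5% of all genes. With the block 2 were called, or 16.7% against 17.4% of all genes. Extraembryonic endoderm and trophoblast markers had 0 called of 10 and of 7. At an unadjusted limma p under 0.05 each list had 3, or 30% and 42.9% against 24.5% of all genes. With the block they had 2 and 3 called, or 20% and 42.9% against 17.4% of all genes. Primitive streak and mesoderm markers had 2 called of 7, Gsc and Kdr, and neural markers 1 of 8, Ncam1, all higher, or 28.6% and 12.5% against 7.78% of all genes. Eomes, a streak marker, had the largest change of its list, -0.57, and was called lower with the block alone (adjusted p = 0.174, or 0.00745 with the block). Of the neural markers 3 had negative changes, down to -0.18. With the block 3 of 7 streak markers were called, 2 higher and 1 lower, and 3 of 8 neural markers, all higher. These shares were 42.9% and 37.5%, against 17.4% of all genes. Gsc was called in 2 of 6 fits that each left out 1 array and Kdr in 0. The mean signal of the streak list was 7.14 to 7.21 in tamoxifen arrays and 7.08 to 7.22 in untreated arrays, and that of the neural list 8.12 to 8.32 against 7.99 to 8.17. RMA gives no detection call, so no marker can be called absent, and the part of these cell types in the results was not tested.

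Of the 50 WNT genes, 4 rose after tamoxifen and 0 fell, at a limma adjusted p under 0.05 over all 19938 genes. The 4 were the ligand Wnt5a, the receptors Fzd2 and Fzd10 and the secreted inhibitor Sfrp1. The share called was 8%, against 7.78% of all genes tested, so WNT genes were called about as often as genes in general. Rises alone took in 8% of WNT genes and 3.79% of all genes, and falls 0 of 50 and 3.99% of all genes. The median change was 0.06 on the log2 scale, against 0.01 over all genes, and 34 of 50 changes were positive, or 68% against 53.2% of all genes.

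Same-numbered arrays of the 2 groups deviated together, and with the replicate number as a block 11 WNT genes were called, 8 higher and 3 lower, or 22% against 17.4% of all genes. In that fit 7.87% of all genes were higher and 9.54% lower. It added Wnt7b, Fzd6, Tcf7l2 and Dkk3 on the higher side and Fzd9, Fzd4 and Axin2 on the lower side. The same count, 11 of 50, passed an unadjusted limma p under 0.05 without the block, against 24.5% of all genes. All 3 tamoxifen values lay above all 3 untreated values in 13 WNT genes and below them in 3, against 14.5% and 14.8% of all genes. An exact permutation test (two-sided) cannot go under p = 0.1 with 3 arrays in each group. All 16 genes had that value, as every gene with non-overlapping groups must, so the test adds nothing to the separation.

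**Figure D1:**
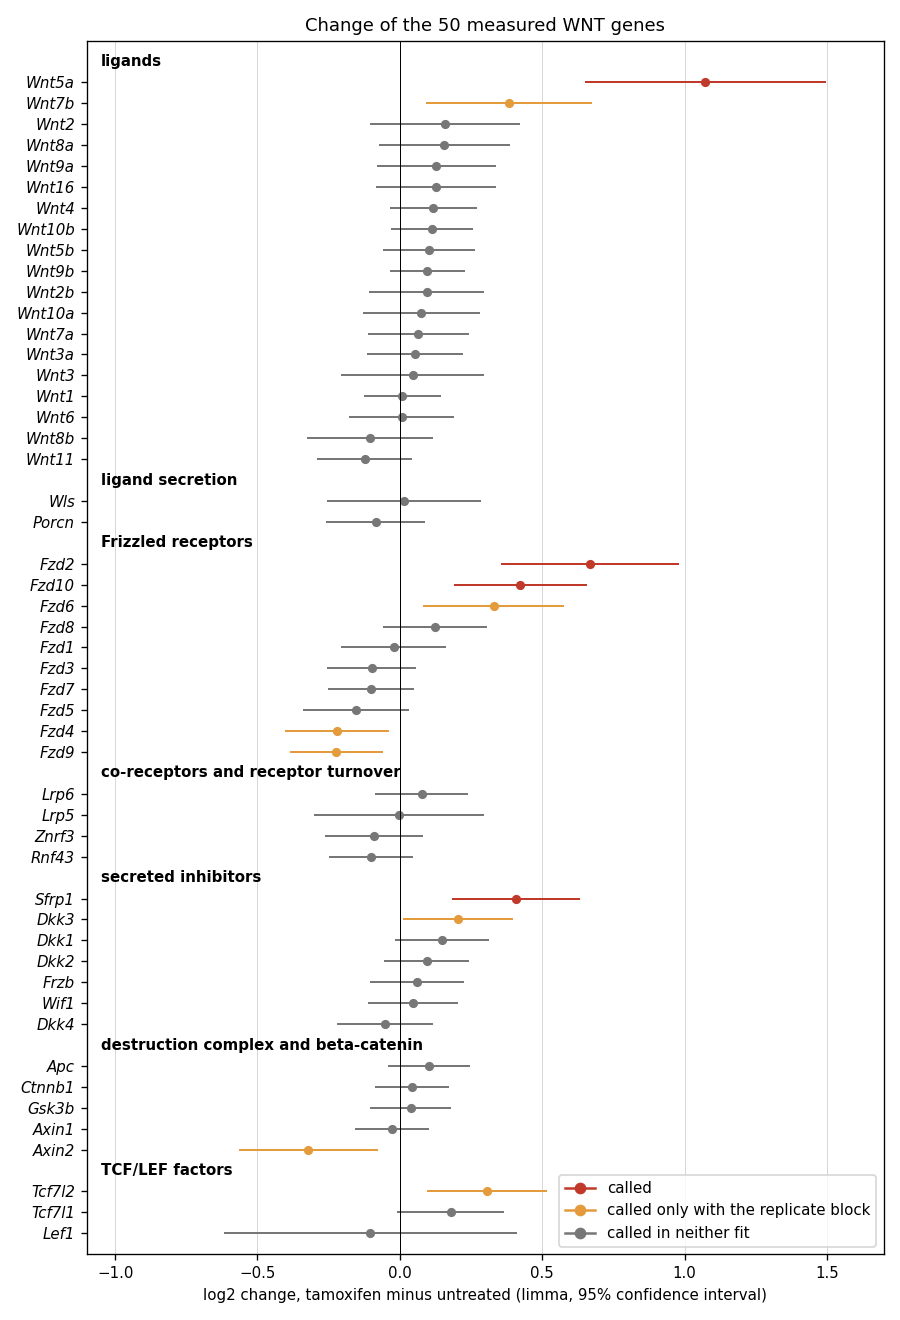
Log2 change (tamoxifen minus untreated, horizontal axis) of the 50 measured WNT genes, grouped by role, with limma's 95% confidence intervals as bars. Red points passed an adjusted p under 0.05, orange points did so with the replicate number as a block, and grey points did in neither; Wnt5a lies farthest to the right at 1.07.

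The ligands were led by Wnt5a, known for signalling without beta-catenin in cell movement and polarity. Wnt5a (probe set 10413482) had 7.36, 8.20 and 7.84 in tamoxifen arrays, against 6.72, 6.90 and 6.57 in untreated arrays (log2 signal). The groups did not overlap, and tamoxifen replicate 1 was the lowest of its group. The change was 1.07 ± 0.19 (log2, SE), 2.10-fold, with a 95% confidence interval from 0.65 to 1.49 and a limma adjusted p of 0.0135. By replicate number the differences were 0.64, 1.31 and 1.27. The call was kept in 5 of 6 fits that each left out 1 array and lost without tamoxifen replicate 3 (adjusted p = 0.0523), and it was also lost when all probe sets were fitted together (0.0709).

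Wnt7b, a ligand of brain vessel and lung development, was the other ligand past the threshold in the blocked fit. It had 7.74, 7.75 and 8.21 in tamoxifen arrays, against 7.43, 7.48 and 7.64 in untreated arrays. The groups were separated by 0.10, with tamoxifen replicate 3 standing above the rest. The log2 change was 0.38 ± 0.13 (limma adjusted p = 0.102, or 0.01 with the block).

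The other 17 ligands passed in neither fit. Their log2 changes ran from -0.12 (Wnt11) to 0.16 (Wnt2), with limma adjusted p-values from 0.309 to 0.975. Wnt9a had 8.01, 8.08 and 8.10 in tamoxifen arrays, against 8.14, 7.86 and 7.81 in untreated arrays. Its groups overlapped, as untreated replicate 1 was the highest of all 6 (log2 change 0.13 ± 0.09, adjusted p = 0.428). The classical canonical ligands Wnt3a, Wnt3 and Wnt1 had changes of 0.05 ± 0.07, 0.04 ± 0.11 and 0.01 ± 0.06. Those of Wnt3 and Wnt1 changed sign after cyclic loess and after renewed quantile normalisation, and that of Wnt3a when untreated replicate 3 was left out. Confidence intervals reached from -0.20 to 0.29 for Wnt3 and from -0.12 to 0.14 for Wnt1, so changes within these ranges were not excluded. Wnt1 was dim, with a mean log2 signal of 5.28, at percentile 13.4 of all genes.

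Of the 19 ligands 1 was called, or 5.26% against 7.78% of all genes, and 17 had a change above 0, against 53.2% of all genes, with a median of 0.10. After cyclic loess the count was 14 of 19 and the median 0.07, and without untreated replicate 3 it was 13 of 19 and 0.06. Wnt10b, Wnt4 and Wnt9b had non-overlapping groups, with log2 changes of 0.11 (adjusted p = 0.309), 0.12 (0.31) and 0.10 (0.328). Wnt4 was the only gene with a further probe set, whose difference of 0.17 had the same direction. Only 7 of the 19 ligands remained when the dimmest 40% of genes were left out, and all 7 of these had positive changes. The median over all genes was -0.03 in that fit and 0.01 with the dim genes kept. The share of 53.2% is therefore not a background matched for signal.

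Genes of ligand secretion were not called. Porcn, the acyltransferase that attaches the lipid to WNT ligands, had 9.89, 10.06 and 9.87 in tamoxifen arrays, against 9.97, 10.12 and 9.99 in untreated arrays. It was lower by a little in each numbered pair, within the spread of the groups (log2 change -0.09 ± 0.08, limma adjusted p = 0.537). Wls, the carrier that brings ligands to the cell surface, had a change of 0.01 ± 0.12 that turned negative without tamoxifen replicate 3 (-0.11), untreated replicate 1 (-0.05) or untreated replicate 2 (-0.00026).

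Of 10 Frizzled receptors measured, 2 rose, 0 fell and 8 were not called, or 20% called against 7.78% of all genes. With the replicate number as a block 3 were higher and 2 lower, or 50% against 17.4% of all genes. Fzd2, a receptor known to take part in Wnt5a signalling, had 8.33, 8.73 and 8.95 in tamoxifen arrays, against 7.98, 8.00 and 8.03 in untreated arrays. The untreated values spanned 0.04, and every tamoxifen value was above them. The change was 0.67 ± 0.14 (log2, SE), 1.59-fold (limma adjusted p = 0.023), with differences of 0.34, 0.74 and 0.93 by replicate number. The call held without tamoxifen replicate 1 and was lost without tamoxifen replicate 2 (0.0929), tamoxifen replicate 3 (0.0598), untreated replicate 1 (0.0515), untreated replicate 2 (0.0795) or untreated replicate 3 (0.0582), and in the fit of all probe sets (0.0939).

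Fzd10, the other called receptor, had 8.97, 8.93 and 8.67 in tamoxifen arrays, against 8.58, 8.42 and 8.29 in untreated arrays. The groups were separated by 0.09, and replicate 3 was the lowest in each. The log2 change was 0.42 ± 0.10, 1.34-fold, with a limma adjusted p of 0.039. It was lost without tamoxifen replicate 1 (0.0843), tamoxifen replicate 2 (0.145), untreated replicate 2 (0.115) or untreated replicate 3 (0.101), and in the fit of all probe sets (0.12). This is the receptor whose upstream sequence is printed above, with neither searched form of the TCF/LEF letters in that window.

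Fzd6, a receptor of planar cell polarity and hair patterning, had 8.67, 8.84 and 8.89 in tamoxifen arrays, against 8.23, 8.60 and 8.59 in untreated arrays. Replicate 1 was the lowest in both groups, and the groups did not overlap (log2 change 0.33 ± 0.11, limma adjusted p = 0.101, or 0.0104 with the block). Fzd9 had 7.83, 7.76 and 7.67 in tamoxifen arrays, against 8.06, 7.95 and 7.92 in untreated arrays. Its groups were separated by 0.08 in the opposite direction (log2 change -0.22 ± 0.07, adjusted p = 0.0911, or 0.0293 with the block). Fzd4, which also serves as the receptor of the non-WNT ligand norrin, had 7.10, 7.03 and 6.88 in tamoxifen arrays, against 7.25, 7.29 and 7.13 in untreated arrays. The gap between the groups was 0.02 (log2 change -0.22 ± 0.08, adjusted p = 0.124, or 0.0349 with the block).

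Fzd7, a receptor described in embryonic stem cells, had 11.63, 11.51 and 11.51 in tamoxifen arrays, against 11.67, 11.69 and 11.60 in untreated arrays. The groups overlapped, and the log2 change was -0.10 ± 0.06 (limma adjusted p = 0.375, 95% confidence interval -0.25 to 0.04). Fzd5 was lower in all 3 tamoxifen arrays by a gap of 0.0038 (log2 change -0.15 ± 0.08, adjusted p = 0.279). Fzd1, Fzd3 and Fzd8 had changes of -0.02, -0.10 and 0.12 with overlapping groups.

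**Figure D2:**
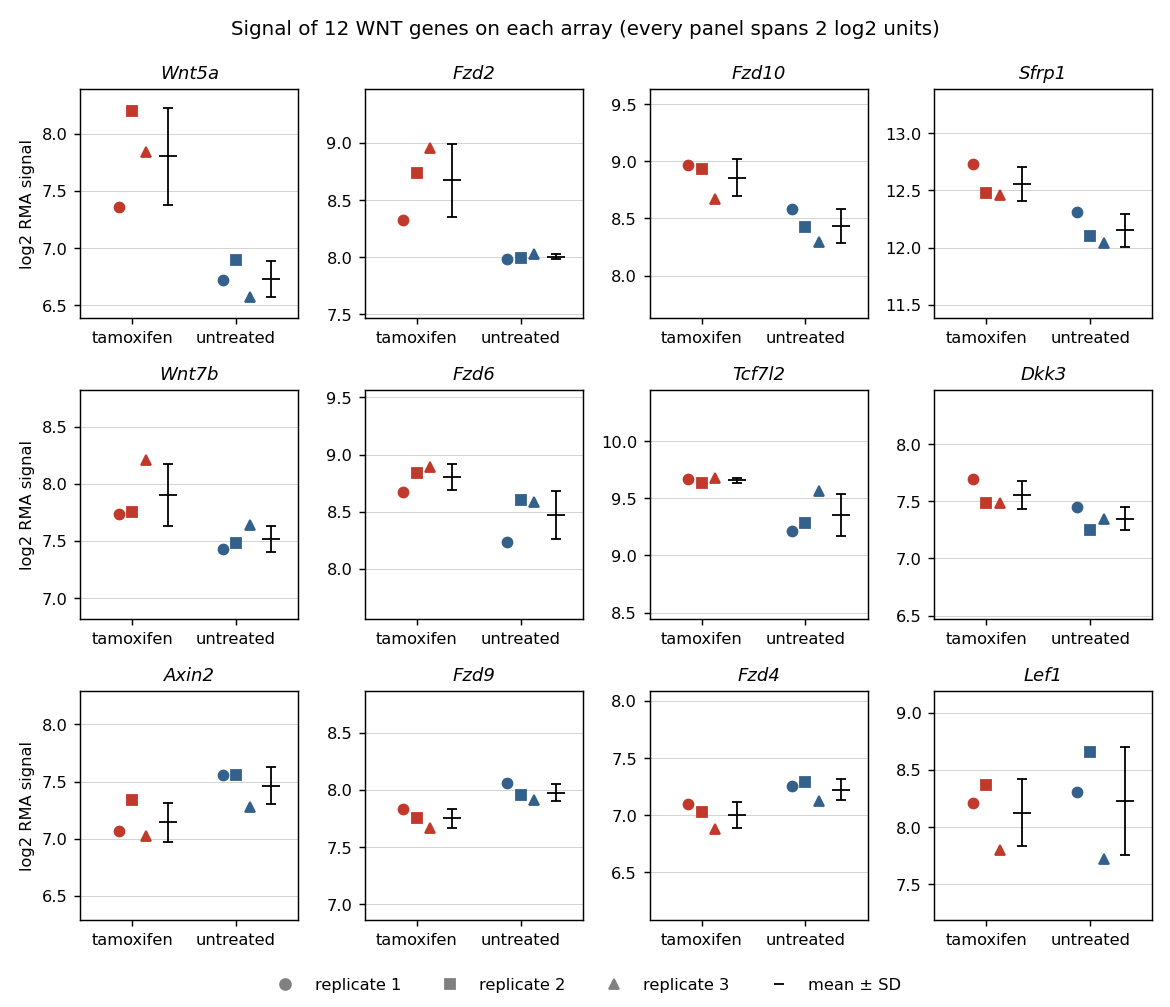
Log2 RMA signal (vertical axis) of 12 WNT genes on each array, tamoxifen left and untreated right, with circles, squares and triangles for replicates 1, 2 and 3 and black bars for mean ± SD (n = 3). Of these 12 genes only Axin2 and Lef1 have overlapping groups, and both shift with the replicate number. The 4 genes called without the block are Wnt5a, Fzd2, Fzd10 and Sfrp1. Over all genes 14.5% lay wholly above and 14.8% wholly below.

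The co-receptors and the ligases that remove receptors were not called in either fit. Lrp5 had 10.82, 10.56 and 10.41 in tamoxifen arrays, against 10.85, 10.54 and 10.42 in untreated arrays. The values matched by replicate number, with differences of -0.02, 0.02 and -0.01, while they spread over 0.41 in the tamoxifen and 0.43 in the untreated group (log2 change -0.0030 ± 0.13, limma adjusted p = 0.993). The sign of that change turned in 6 of the 15 other fits. Lrp6, its paralogue, had a change of 0.08 ± 0.07. Rnf43, a ubiquitin ligase that clears Frizzled receptors from the surface, had 7.14, 7.22 and 7.10 in tamoxifen arrays, against 7.31, 7.26 and 7.20 in untreated arrays, with overlapping groups (-0.10 ± 0.06, adjusted p = 0.368). Its relative Znrf3 had a change of -0.09 ± 0.07.

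Secreted inhibitors had 1 rise among 7, or 14.3% called against 7.78% of all genes. Sfrp1 binds WNT ligands through a domain like that of Frizzled receptors. It had 12.73, 12.48 and 12.46 in tamoxifen arrays, against 12.31, 12.10 and 12.04 in untreated arrays. Replicate 1 was the highest in both groups, and the groups were separated by 0.16. The log2 change was 0.41 ± 0.10, 1.33-fold, with a limma adjusted p of 0.0389 (0.0028 with the block), and the numbered pairs differed by 0.42, 0.38 and 0.43. The call was kept without untreated replicate 1 and lost without tamoxifen replicate 1 (0.074), tamoxifen replicate 2 (0.0929), tamoxifen replicate 3 (0.077), untreated replicate 2 (0.126) or untreated replicate 3 (0.102), and in the fit of all probe sets (0.118).

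Dkk3, a divergent Dickkopf protein, had 7.70, 7.48 and 7.48 in tamoxifen arrays, against 7.45, 7.25 and 7.34 in untreated arrays. Its groups were separated by 0.03 (log2 change 0.21 ± 0.08, limma adjusted p = 0.17, or 0.045 with the block). Dkk1, which blocks Lrp5 and Lrp6 and is the described miR-290 target, had 6.57, 6.55 and 6.52 in tamoxifen arrays, against 6.51, 6.28 and 6.40 in untreated arrays. The groups were 0.01 apart. The change of 0.15 ± 0.07 passed in neither fit (limma adjusted p = 0.245, or 0.153 with the block). Its 95% confidence interval ran from -0.01 to 0.31. Dkk1 was dim, with a mean log2 signal of 6.47, at percentile 30.9 of all genes. Whether this low signal limited the measured change was not tested. Dkk2, Frzb, Dkk4 and Wif1 had changes from -0.05 to 0.09.

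The destruction complex and beta-catenin were not called without the block. Ctnnb1, which encodes beta-catenin, had 12.91, 12.95 and 12.92 in tamoxifen arrays, against 12.87, 12.88 and 12.89 in untreated arrays. All tamoxifen values were above the untreated ones, by a gap of 0.02, and the log2 change of 0.04 ± 0.06 had a limma adjusted p of 0.686 and a 95% confidence interval from -0.08 to 0.17. Apc, Gsk3b and Axin1 had changes of 0.10 ± 0.06, 0.04 ± 0.06 and -0.03 ± 0.06, the last turning positive after renewed quantile normalisation and cyclic loess.

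Axin2, a destruction complex scaffold and a direct target of canonical signalling, had 7.07, 7.34 and 7.03 in tamoxifen arrays, against 7.56, 7.56 and 7.28 in untreated arrays. Tamoxifen replicate 2 lay above untreated replicate 3, so the groups overlapped, yet each numbered pair was lower in tamoxifen, by -0.49, -0.22 and -0.26. The log2 change was -0.32 ± 0.11, with a limma adjusted p of 0.103, or 0.017 with the replicate number as a block. The 95% confidence interval without the block ran from -0.56 to -0.08.

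Of the TCF/LEF factors, Tcf7l2 had 9.66, 9.64 and 9.68 in tamoxifen arrays, against 9.22, 9.28 and 9.56 in untreated arrays. The tamoxifen values spanned 0.04 and lay above all untreated values, of which replicate 3 was the nearest. The log2 change was 0.30 ± 0.09 (limma adjusted p = 0.0793). It passed with the block (0.0267), after cyclic loess (0.0499), with array weights (0.0368) and without untreated replicate 3 (0.0236). Tcf7l1, the repressor of pluripotency genes in embryonic stem cells, had 10.46, 10.60 and 10.62 in tamoxifen arrays, against 10.26, 10.39 and 10.50 in untreated arrays. It was higher in every numbered pair with overlapping groups (0.18 ± 0.08, adjusted p = 0.215, or 0.0683 with the block).

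Lef1, described here because of its values and itself a target of the pathway, had the widest standard error of the 50 genes in the fit without the block. Its values were 8.21, 8.37 and 7.80 in tamoxifen arrays, against 8.31, 8.66 and 7.72 in untreated arrays. Replicate 3 was the lowest in both groups, and the log2 change was -0.10 ± 0.22 with a 95% confidence interval from -0.61 to 0.41 (limma adjusted p = 0.821). With the replicate number as a block the standard error was 0.08 and the adjusted p 0.4. It turned positive without tamoxifen replicate 3 (0.06) or untreated replicate 2 (0.11).

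Of 31 further extracellular and receptor genes of the pathway, all measured, 4 rose and 0 fell, or 12.9% called against 7.78% of all genes. The list's median change was 0.08, against 0.01 over all genes. Notum, the secreted enzyme that strips the lipid from WNT ligands, had 8.52, 9.02 and 8.55 in tamoxifen arrays, against 7.24, 7.83 and 7.61 in untreated arrays. The groups did not overlap (log2 change 1.14 ± 0.17, 2.20-fold, limma adjusted p = 0.0085). Reck, a membrane protein that helps Wnt7a and Wnt7b signal and also inhibits matrix proteases, had 10.20, 10.20 and 10.28 in tamoxifen arrays, against 9.28, 9.29 and 9.34 in untreated arrays. Each group spanned less than 0.10 around a log2 change of 0.93 ± 0.06, 1.90-fold (adjusted p = 0.000403).

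Apcdd1, a membrane-bound inhibitor of WNT signalling, had 8.78, 8.79 and 8.78 in tamoxifen arrays, against 8.31, 8.35 and 8.14 in untreated arrays. It changed by 0.52 ± 0.07 on the log2 scale (limma adjusted p = 0.00646), and like Notum and Reck it kept its call in 6 of 6 fits without 1 array. The Sfrp1 relative Sfrp4 rose by 0.39 ± 0.08 (adjusted p = 0.0202). That call was lost without tamoxifen replicate 2 (0.0865), tamoxifen replicate 3 (0.0691) or untreated replicate 3 (0.0591). With the block, 8 genes of the list were higher and 1 lower, or 29.0% against 17.4% of all genes. In the fit of all probe sets Reck and Apcdd1 were called, while Notum (0.0542) and Sfrp4 (0.0756) were not.

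**Figure D3:**
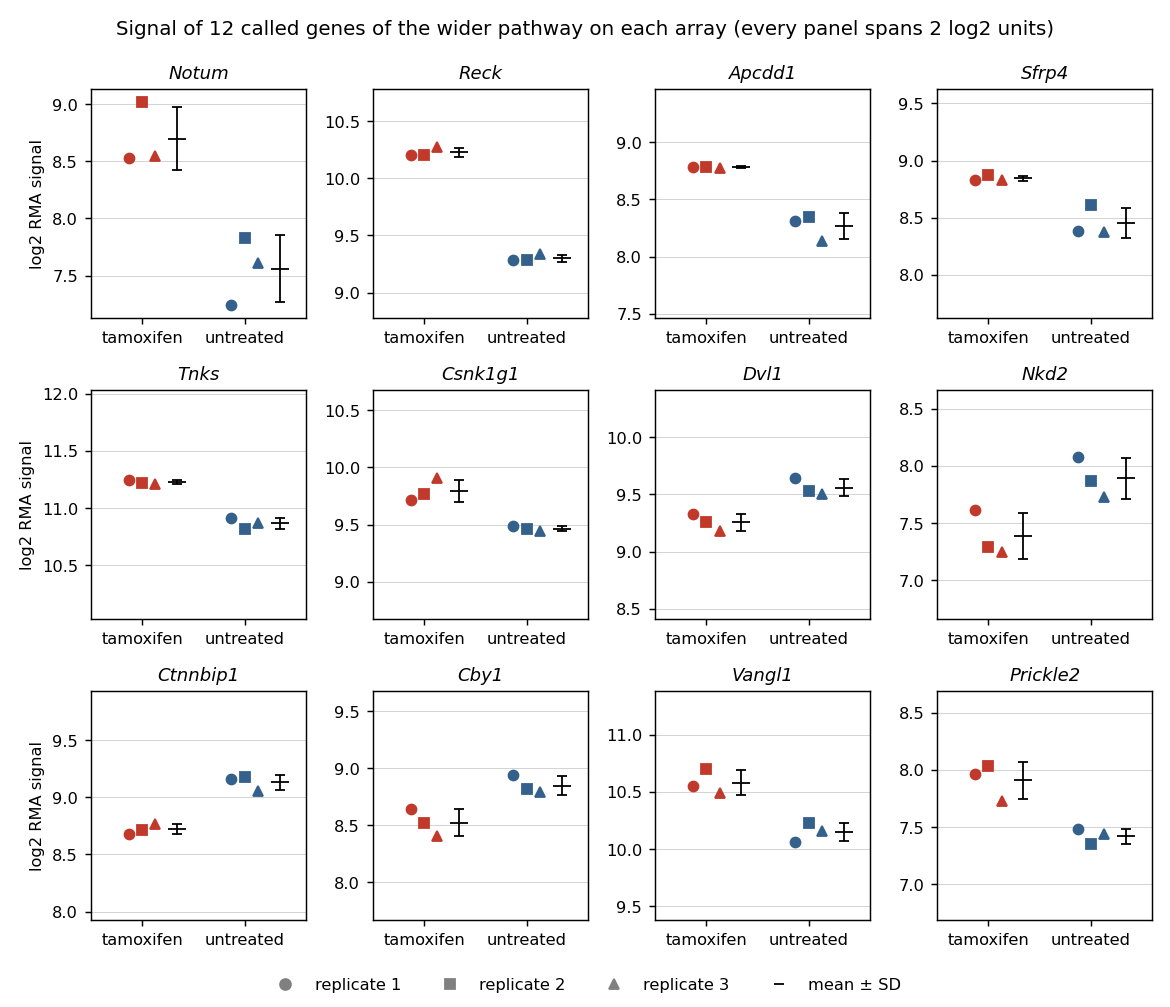
Log2 RMA signal (vertical axis) of the 12 called genes of the wider extracellular, cytoplasmic, nuclear and polarity lists on each array, tamoxifen left and untreated right, symbols and bars as in the plot of WNT genes (mean ± SD, n = 3). In every panel the 3 tamoxifen values lie on one side of the 3 untreated values, lower for Dvl1, Nkd2, Ctnnbip1 and Cby1. The genes were picked because they were called, so this separation is no further evidence. Over all genes 14.5% lay wholly above and 14.8% wholly below.

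Among 31 cytoplasmic genes 2 rose and 2 fell, or 12.9% called against 7.78% of all genes, with a median change of -0.08. With the block 2 were higher and 4 lower, or 19.4% against 17.4% of all genes. Tnks, a tankyrase that marks Axin proteins for degradation, had 11.25, 11.22 and 11.21 in tamoxifen arrays, against 10.91, 10.82 and 10.87 in untreated arrays. The groups were far apart relative to their spread (log2 change 0.36 ± 0.06, limma adjusted p = 0.0112; 0.0523 without tamoxifen replicate 2). Csnk1g1, a casein kinase of the family that phosphorylates Lrp6, rose by 0.33 ± 0.07 (adjusted p = 0.0248). Nkd2, an antagonist that binds Dishevelled, had a log2 change of -0.51 ± 0.12 (adjusted p = 0.037). Dvl1, a Dishevelled protein that relays the receptor signal, had one of -0.30 ± 0.07 (adjusted p = 0.034).

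These 3 calls were less firm when arrays were left out. Csnk1g1 was called in 2 of 6 such fits and lost without tamoxifen replicate 2 (0.0823), tamoxifen replicate 3 (0.0851), untreated replicate 2 (0.0855) or untreated replicate 3 (0.0656). Nkd2 was called in 2 and lost without tamoxifen replicate 2 (0.138), tamoxifen replicate 3 (0.124), untreated replicate 1 (0.0761) or untreated replicate 2 (0.101). Dvl1 was called in 1, without tamoxifen replicate 1, and its adjusted p was 0.117 and 0.121 without tamoxifen replicates 2 and 3 and 0.0713, 0.0878 and 0.0578 without untreated replicates 1, 2 and 3. Dvl1 also missed the threshold after cyclic loess (0.0532). In the fit of all probe sets Tnks was called, while Csnk1g1 (0.0794), Nkd2 (0.119) and Dvl1 (0.0958) were not.

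Of 21 nuclear genes 0 rose and 2 fell, or 9.52% called against 7.78% of all genes, with a list median of -0.03. At an unadjusted limma p under 0.05, 3 were higher and 4 lower, or 33.3% against 24.5% of all genes. With the block 2 were higher and 4 lower, or 28.6% against 17.4% of all genes. Both called genes encode inhibitors of beta-catenin. Ctnnbip1, which keeps beta-catenin from binding TCF factors, had 8.68, 8.71 and 8.76 in tamoxifen arrays, against 9.16, 9.18 and 9.06 in untreated arrays. Its log2 change was -0.41 ± 0.06 (limma adjusted p = 0.00941), a call kept in 6 of 6 fits without 1 array. Cby1, which also binds beta-catenin, fell by 0.32 ± 0.08 (adjusted p = 0.0409). It was called in 1 of 6 fits, without tamoxifen replicate 1, and lost without tamoxifen replicates 2 (0.135) and 3 (0.134) and untreated replicates 1 (0.086), 2 (0.101) and 3 (0.0674). In the fit of all probe sets Ctnnbip1 was called and Cby1 was not (0.111).

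Planar cell polarity genes, the branch with which Wnt5a is associated, had 2 rises and 0 falls among 19 measured, or 10.5% called against 7.78% of all genes, with a median change of 0.03. The blocked counts were the same, against 17.4% of all genes. Vangl1, a core membrane protein of the branch, had 10.55, 10.70 and 10.49 in tamoxifen arrays, against 10.07, 10.23 and 10.16 in untreated arrays. Its log2 change was 0.43 ± 0.08 (limma adjusted p = 0.015; 0.0638 without tamoxifen replicate 2). Prickle2, a cytoplasmic partner of the Vangl proteins, rose by 0.49 ± 0.09 (adjusted p = 0.015), a call lost without tamoxifen replicate 2 (0.0653) or untreated replicate 2 (0.0634). Neither was called in the fit of all probe sets (0.0634 for Vangl1 and 0.0672 for Prickle2). The receptors Ror1, Ror2, Ryk and Ptk7, which take part in Wnt5a and polarity signalling, had changes of 0.23, -0.09, -0.03 and 0.15, and none of these 4 was called; they are counted in the extracellular and receptor list.

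Of 16 measured genes described as beta-catenin and TCF targets, 4 rose and 0 fell, or 25% called against 7.78% of all genes, with a median change of 0.12. Notum and Apcdd1, counted already among the extracellular genes, were 2 of them, beside Id2 (0.78 ± 0.10, limma adjusted p = 0.00456) and the cyclin Ccnd1 (0.56 ± 0.10, adjusted p = 0.0158; 0.0567 and 0.0595 without tamoxifen replicates 2 and 3, and 0.0724 in the fit of all probe sets). With the replicate number as a block 6 were higher and 1 lower, or 43.8% against 17.4% of all genes, the lower one being Myc (-0.78 ± 0.32, adjusted p = 0.174, or 0.00224 with the block), named after its values were seen. Cdx1 and Lgr5 had changes of -0.06 and 0.04, and Nkd1 and Sp5 of -0.12 and 0.35, none called without the block. The target list was chosen with earlier results of these data known. It leaves out Axin2 and Lef1, targets counted among the WNT genes, with changes of -0.32 and -0.10. Neither was called without the block. With it Axin2 was called lower (limma adjusted p = 0.017) and Lef1 was not called. Of 9 genes described as repressed by Tcf7l1, 1 rose, Klf2 (0.58 ± 0.09, adjusted p = 0.00903), and 0 fell, or 11.1% called against 7.78% of all genes, with a median of 0.05. Klf2 missed the threshold in the fit of all probe sets (0.0509).

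**Figure D4:**
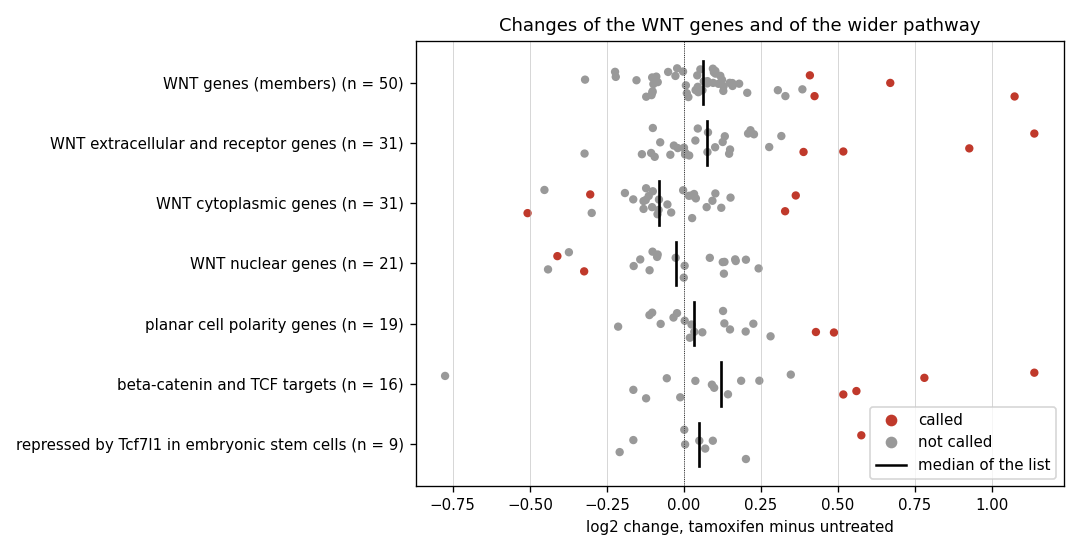
Log2 change (tamoxifen minus untreated, horizontal axis) of each gene in the WNT set and in 6 lists of the wider pathway, red where called at a limma adjusted p under 0.05 and grey otherwise, with a black line at the list's median. Points are spread vertically only for legibility. The medians lie between -0.08 and 0.12, and Notum, Apcdd1, Lgr5, Nkd1 and Tbx3 each appear in 2 lists.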

How the data were processed

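Total RNA of 6 cell samples was hybridised to Affymetrix arrays, and the deposited values are log2 signals that the authors made by RMA; the submitters' processing notes name Affymetrix Expression Console 1.2. The genome build is not given in the sources used here. Of 35556 probe sets, 21789 carried 1 gene symbol, 1621 several and 12146 none in the platform annotation, and 21698 of the first kind matched a RefSeq gene (GRCm38.p6). The probe set with the highest mean signal stood for each of 19938 genes. No filter on dim genes was applied.

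Groups came from the sample titles, 3 tamoxifen and 3 untreated. All genes were fitted together with lmFit and eBayes of limma 3.58.1 in R 4.3.3, with calls made below 0.05 after Benjamini-Hochberg adjustment. The block used the replicate numbers in the titles. Deviations from group means of same-numbered arrays correlated at 0.356, 0.345 and 0.389 across genes, all above 0.1, so the numbers were taken to pair the samples in the blocked fit only. The titles do not state a pairing, and these correlations come from the same arrays as the blocked p-values. Standard errors and intervals are from the fit without the block unless the block is named. On simulated data of 19938 genes the fit recovered 69% of genes changed by 0.5 and 91% of those changed by 1 on the log2 scale. It also called 9 unchanged genes. The simulated noise was independent between arrays, without the shared deviations of same-numbered arrays, so these shares need not hold for the real arrays.

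The WNT genes and the lists were chosen with earlier results of these data known. Every called gene, those called with the block, and in each role the gene of smallest p and of highest signal are given by array, and from each list up to 4 called genes per direction. Lef1, Dkk1 and other genes named with their values were added for background or after their values were seen. Alternatives covered the block, the probe set rule, a filter on dim genes, 3 normalisations, the variance prior, array weights, all probe sets, a stricter threshold and leaving out each array.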

Additional observations from a re-analysis of the deposited data

How the results depend on the processing

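The count of 4 called WNT genes was also 4 when probe sets of a gene were averaged, without the dimmest 40% of genes, after median centring, after renewed quantile normalisation and with a trended robust variance prior, and 5 after cyclic loess and with array weights. With the replicate number as a block it was 11, and over all genes 3472 in place of 1552. Fitting all probe sets together gave 0 WNT genes (limma, 10 at an unadjusted p under 0.05) and 336 probe sets, and an adjusted p under 0.01 gave 0 (11 at an unadjusted p under 0.05) and 276 genes. Array weights gave 2511 genes. Leaving out 1 array gave 1 to 3 WNT genes and 355 to 1580 genes, the fewest of all genes without tamoxifen replicate 2. Single WNT genes kept direction and side of the threshold in 674 of 733 alternatives, passed it newly in 10 and lost it in 19. All 19 losses fell on the 4 called genes. The sign changed in 30, all of these in 11 genes with limma adjusted p of 0.561 or more, and the cause was not tested. Many of the 674 were fixed in advance. The block, the variance prior, the filter on dim genes and the fit of all probe sets leave the log2 change as it was. Averaging probe sets can alter only that of Wnt4. The 46 genes not called had no call to lose. After renewed quantile normalisation the log2 changes that turned sign were Axin1 0.0024, Lrp5 0.031, Wif1 -0.012, Wnt1 -0.028, Wnt3 -0.011 and Wnt6 -0.050. After cyclic loess they were Axin1 0.019, Lrp5 0.041, Wnt1 -0.025, Wnt3 -0.0050 and Wnt6 -0.043, with array weights Lrp5 0.0093 and Wnt1 -0.0082, and after median centring Wnt6 -0.00048. With 1 array left out in turn, the log2 change ranged from -0.090 to 0.051 for Fzd1, -0.36 to 0.11 for Lef1, -0.11 to 0.12 for Lrp5, -0.11 to 0.11 for Wls, -0.011 to 0.034 for Wnt1, -0.0092 to 0.15 for Wnt10a, -0.084 to 0.11 for Wnt3, -0.016 to 0.096 for Wnt3a and -0.067 to 0.076 for Wnt6.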
